A study of Drosophila melanogaster with 21 samples.

Results

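The genes described here encode the cytosolic glutathione S-transferases (GSTs) of Drosophila, taken as every gene whose symbol is Gst followed by a class letter D, E, O, S, T or Z and a number. The rule found 35 of the 17737 genes listed, of which 11 are class D (delta), 14 class E (epsilon), 3 class O (omega), 1 class S (sigma), 4 class T (theta) and 2 class Z (zeta). Their RNA was measured by RNA-seq in S2[Cas9] cells, an embryonic hemocyte-derived line carrying Cas9, 4 days after double-stranded RNA (dsRNA) was added. The first experiment held 3 dsUsh libraries, with a dsRNA against every isoform of the transcriptional regulator U-shaped (Ush), 3 dsMi-2 libraries, with a dsRNA against dMi-2, the ATPase of the dNuRD chromatin remodelling complex, and 3 dsEGFP control libraries. The second held 4 dsUsh-B libraries, with a dsRNA against the Ush-B isoform, and 4 dsEGFP libraries of its own. All groups were cultures of the same line, and the controls received dsRNA too. The comparisons ask which GST genes depend on Ush, on dMi-2 and on the isoform that binds dNuRD.

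GSTs join glutathione, the main small thiol of the cell, to electrophilic compounds so that these can be exported and broken down, and many also reduce peroxides. The delta and epsilon classes expanded in insects, are encoded largely in tandem gene clusters and are best known for the detoxification of insecticides and plant compounds, whereas the omega, sigma, theta and zeta classes are also found in vertebrates. In flies many GST genes are targets of CncC, the Nrf2 homologue encoded by cnc, which is held back by Keap1, and GstD1 is its customary reporter.

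Values are normalised counts, that is, reads per gene divided by the size factor of the library. A gene was tested if its mean over the libraries of an experiment reached 5, on log2(normalised count + 1) with limma, and was called where the adjusted p was under 0.01 (under 0.05 for dsUsh-B). In the first experiment 31 of 35 GST genes were tested. GstD8, GstE1, GstE4 and GstZ2 stayed below the minimum, with means of 3.58 to 4.97. In the second experiment 32 were tested and GstE1, GstE10 and GstZ2 were not. Library depth was 21366051 to 26101822 reads in the first experiment and 46181614 to 59387417 in the second.

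The targets of the dsRNAs were read first. Mi-2 had 1567.3, 1124.9 and 1152.2 normalised counts in the dsMi-2 libraries, against 5246.9, 5417.4 and 4272.5 in the dsEGFP libraries, a log2 change of -1.97 ± 0.15 (SE; adjusted p = 6.93e-05, limma). The ush gene had 4089.1, 3810.3 and 3341.3 in the dsUsh libraries, against 5275.9, 4789.2 and 3929.1 in the dsEGFP libraries. These groups overlapped and the change of -0.31 ± 0.13 was not called (adjusted p = 0.0978, limma; 0.00702 with replicate number as a block). In the dsUsh-B libraries ush had 6463.9 to 9992.7, against 6410.9 to 10368.9 in their dsEGFP libraries (adjusted p = 0.927, limma), and a count over the whole gene does not separate its isoforms. At the protein level the paper reported depletion by Western blot. Both main Ush bands were lost after dsRNA against Ush, and the slower band was depleted after dsRNA against Ush-B. Of 12 hemocyte markers, 9 averaged at least 5 normalised counts in the dsEGFP libraries of the first experiment and gcm was at 0. Of 8 fat body markers, 1 did so, and Lsp1alpha, Lsp2 and Adh were at 0.

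Which GST genes S2 cells use was read from the 2 sets of control libraries. Levels between genes are given as RPKM, reads per kilobase scaled to library depth, with the annotated gene span as length, a scale that understates genes with long introns such as GstS1, GstT4 and GstZ2. GstD1, the classic delta enzyme that metabolises DDT, ranked first in both sets, with 411.9 ± 131.3 in the first dsEGFP set (SD, n = 3) and 295.04 ± 69.4 in the second (SD, n = 4). It held 24.5% ± 4.23 and 22.4% ± 4.05 of the summed GST level. GstE6 followed with 275.9 ± 95.4 and 270.3 ± 61.5, GstD3 with 177.9 ± 58.9 and 136.7 ± 31.6, GstE9 with 158.3 ± 59.3 and 87.6 ± 47.7, and GstT1 with 80.4 ± 6.05 and 63.8 ± 9.01. The ranges of GstD1 and GstE6 overlapped in both sets, so that their order is not separated by these libraries. Over all 34 neighbouring pairs in the order of levels, 4 in the first set and 5 in the second did not overlap.

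By class, delta genes made up 42.8% ± 5.74 of the summed level in the first control set and 41.1% ± 4.77 in the second, and epsilon genes 44.6% ± 4.22 and 44.8% ± 3.46. Theta genes held 8.45% ± 1.74 and 9.40% ± 1.43, omega genes 3.29% ± 0.52 and 3.71% ± 0.19, and zeta genes 0.824% ± 0.018 and 0.982% ± 0.067. The single sigma gene held 0.0055% ± 0.0022 and 0.0061% ± 0.0028. Within each large class the members were far apart. In class D, GstD1, GstD3, GstD5, GstD7 and GstD9 averaged at least 10 in both sets, whereas GstD8 and GstD11 were under 1. In class E, GstE3, GstE6, GstE7, GstE8, GstE9, GstE11, GstE12 and GstE13 were at least 10, and GstE1, GstE4, GstE5, GstE10 and GstE14 were under 1. GstE14, known as noppera-bo and required for ecdysteroid synthesis in the prothoracic gland, had 0.126 ± 0.071 and 0.154 ± 0.114. Over all classes 18 of 35 genes averaged at least 10 and 10 of 35 under 1 in both sets.

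**Figure D1:**
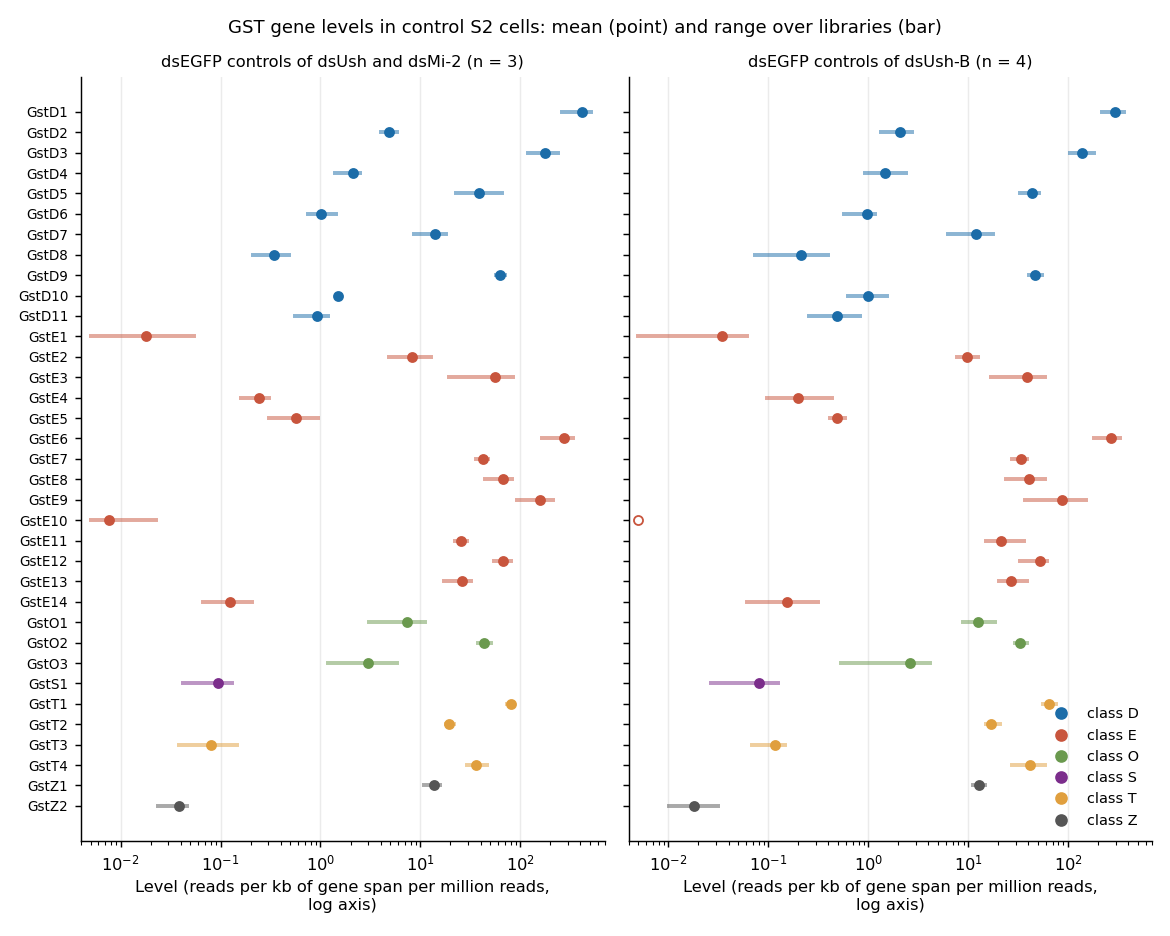
Level of each GST gene in control S2 cells, in RPKM over the gene span on a log axis, with the dsEGFP libraries of dsUsh and dsMi-2 on the left (n = 3) and those of dsUsh-B on the right (n = 4). Points are means, bars the range over libraries, colours the classes, and values of 0 are drawn at 0.005 (the open point is GstE10, at 0 in all 4 libraries); GstD1 and GstE6 are highest in both sets, and GstE1, GstE10 and GstZ2 lowest.

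Control libraries varied in GST expression. Among the 31 tested genes of the first experiment, dsEGFP replicate 1 was the highest of the 3 for 15 and replicate 3 the lowest for 15, against 32.5% and 35.6% of all genes tested. GstE3 had 1343.6, 1129.3 and 352 normalised counts in the dsEGFP libraries and GstE9 1554.4, 3121.2 and 4031.5. These 2 genes of the epsilon cluster thus stood in opposite order over the same libraries. In the second experiment dsEGFP replicate 1 was highest for 16 of 32 genes and replicate 4 for 14, against 24.3% and 31.7% of all genes tested.

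In the dsUsh cells GST genes of every class but zeta were called. In the dsUsh libraries 9 of 31 tested GST genes were called (29.0%), against 17.2% of all 9132 genes tested. Of these, 7 rose, against 12.3% of all genes, and 2 fell, against 4.84%. The values of the dsUsh and dsEGFP groups did not overlap for 17 of 31 (54.8%), against 43.4% of all genes, with dsUsh above for 14 and below for 3. An unadjusted p under 0.05 was reached by 17 of 31, against 40.6% of all genes. With replicate number as a block 10 GST genes were called higher and 2 lower, against 1589 higher and 1012 lower of all 9132 genes tested. The median log2 fold change over the tested GST genes was 0.37, against -0.01 over all genes tested, and 0.26 under upper-quartile scaling and 0.23 under quantile normalisation, which moved the median of all genes to -0.12 and -0.20. Those scalings also moved the split of all genes called, 1125 higher and 442 lower, to 985 and 742 and to 912 and 1006. In bulk RNA, fewer cells of a kind and less RNA per cell cannot be told apart.

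Among the called genes, the 3 largest rises in dsUsh were those of GstS1, GstO3 and GstT3, of the sigma, omega and theta classes. GstS1, the sigma enzyme that conjugates lipid peroxidation products and is abundant in flight muscle, had 122.4, 138.6 and 83.2 normalised counts in dsUsh, against 14.5, 18.8 and 6.4 in the dsEGFP libraries. Every dsUsh library lay above every control, and the log2 fold change was 3.11 ± 0.43 (SE; adjusted p = 0.000551, limma). GstO3, an omega enzyme, had 461.9, 842.1 and 487.7 in dsUsh against 171.9, 63.5 and 40.5 in dsEGFP, again without overlap, a change of 2.89 ± 0.54 (adjusted p = 0.00314, limma). The other omega genes were not called: GstO1 averaged 215.7 ± 72.9 in dsUsh and 185.8 ± 96.2 in dsEGFP, and GstO2 1851 ± 306.2 in dsUsh and 2057 ± 155.4 in dsEGFP (SD, n = 3 each).

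All 4 theta genes stood above the dsEGFP range in dsUsh, and 3 were called. Over all genes tested the groups did not overlap, in either direction, for 43.4%, and 12.3% were called higher. GstT3 had 32.1, 19.3 and 27.7 in the dsUsh libraries against 7.2, 2.1 and 3.2 in the dsEGFP libraries, a log2 change of 2.501 ± 0.433 (adjusted p = 0.00209, limma), with a control mean below the minimum of 5. GstT1, first of the theta genes per kilobase of gene span but below GstT4 in counts, had 3034.3, 3753.5 and 3286.8 in dsUsh against 2145.3, 2293 and 2142.7 in dsEGFP. Its rise of 0.61 ± 0.11 lay outside the control range (adjusted p = 0.00318, limma). GstT2 had 691.1, 1026.2 and 718.2 in dsUsh against 488.6, 441.7 and 481 in dsEGFP, a change of 0.76 ± 0.17 (adjusted p = 0.00761, limma). Its annotated span overlaps that of CG12926, which averaged 676.5 ± 360.2 in dsUsh and 95.8 ± 13.7 in dsEGFP; the files do not state whether counting used the strand, so the reads of these 2 genes could not be told apart. GstT4 had 5646.7, 6339.9 and 6918.4 in dsUsh against 3002.1, 3135.8 and 5214.3 in dsEGFP, a change of 0.78 ± 0.20 that was not called (adjusted p = 0.0163, limma) but was with the replicate block (0.00111), by DESeq2 (0.00477) and without dsEGFP replicate 3 (0.00066).

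The summed theta count was 9404 to 11139 in the dsUsh libraries and 5643 to 7841 in the dsEGFP libraries, without overlap.

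The delta class leaned upwards with 1 call. GstD10 had 66.9, 85.2 and 69.4 normalised counts in dsUsh against 30.8, 34.4 and 34.1 in the dsEGFP libraries, a log2 change of 1.13 ± 0.23 (adjusted p = 0.00538, limma). Of 10 tested delta genes 8 had a positive and 2 a negative change, with a class median of 0.67 (0.56 under upper-quartile scaling and 0.27 under quantile normalisation, the counts of signs unchanged). GstD2 had 193.6, 672.7 and 140.9 in dsUsh against 89.6, 81.3 and 72.5 in dsEGFP. Replicate 2 carried much of that difference, and the change of 1.70 ± 0.50 was called by limma with the replicate block (adjusted p = 0.00826; 0.0294 without it) and by DESeq2 (adjusted p = 0.000445). GstD5 had 1418.6, 2289.8 and 1327.5 in dsUsh against 1155.4, 560.5 and 462.9 in dsEGFP and was likewise called with the block (adjusted p = 0.00589; 0.0243 without it, limma), by DESeq2 (0.0047) and without dsEGFP replicate 1 (0.00379). GstD7 ran the other way, with 128.5, 127.3 and 103.5 in dsUsh against 247.9, 152.1 and 328.5 in dsEGFP, without overlap but not called (adjusted p = 0.0405, limma; 0.00407 under quantile normalisation and 0.00814 by DESeq2). For GstD1 the groups overlapped, at 18036 ± 4718 in dsUsh and 13492 ± 3689 in dsEGFP (adjusted p = 0.259, limma), and neither GstD3, GstD4, GstD6, GstD9 nor GstD11 was called, with changes of 0.31, 0.91, 0.93, 0.12 and -0.47.

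The epsilon class split. GstE12 had 4867.9, 4838.7 and 4643.2 in the dsUsh libraries against 2455.6, 1858.6 and 2295.2 in the dsEGFP libraries, a rise of 1.13 ± 0.12 on the log2 scale (adjusted p = 0.000123, limma). The annotated span of GstE12 overlaps CG3894, which averaged 568.5 ± 86.1 in dsUsh and 508.8 ± 85.6 in dsEGFP. GstE7 had 337.7, 367.1 and 309.5 in dsUsh against 690.4, 841.8 and 675.1 in dsEGFP, a change of -1.12 ± 0.14 (adjusted p = 0.000372, limma). GstE8, its neighbour, had 736.2, 821.6 and 640.3 in dsUsh against 1055, 1916.9 and 2245 in dsEGFP, a change of -1.18 ± 0.24 (adjusted p = 0.00491, limma). Both stood below every control. Over 12 tested epsilon genes 7 changes were positive and 5 negative, a split that was 6 and 6 under upper-quartile scaling and 5 and 7 under quantile normalisation, and the summed epsilon count overlapped between the groups, at 13415 to 15749 in dsUsh and 14131 to 15919 in dsEGFP. GstE3, GstE9, GstE6, GstE11, GstE13, GstE2, GstE5 and GstE14 were not called, with changes of 1.17, -0.75, -0.57, 0.26, 0.37, 0.08, -0.23 and 0.13, although GstE9 passed without dsEGFP replicate 1 (-1.14; adjusted p = 0.000904, limma). GstE10, absent from most libraries, had 0.9, 65.9 and 3.2 in dsUsh against 0.9, 0 and 0 in dsEGFP (adjusted p = 0.101, limma). Replicate 2 of dsUsh alone carried it and brought its mean to the minimum of 5, and it counts among the 7 positive changes. Its overlapping neighbour GstE1 had 8.7, 21.6 and 3.2 in dsUsh against 0, 1 and 0 in dsEGFP. GstZ1, the zeta enzyme of tyrosine breakdown, had 347.3, 438.6 and 365 in dsUsh against 340.2, 336.5 and 272 in dsEGFP (adjusted p = 0.231, limma).

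Calls for GstE12, GstE7 and GstS1 held with any of the 6 dsUsh or dsEGFP libraries left out, whereas GstD10 lost its call without each of them (adjusted p from 0.0128 to 0.0215). GstE8 kept it only without dsEGFP replicate 1 and GstT2 only without dsUsh replicate 1 (adjusted p up to 0.0229 and 0.0306). GstT2 was also lost under upper-quartile scaling and quantile normalisation, GstD10 under quantile normalisation and without the filter on low values, and both, with GstE8, in a fit of these 2 groups alone. GstT1 lost it without dsEGFP replicate 1 or 3 or dsUsh replicate 2 or 3, GstO3 without dsEGFP replicate 2 or dsUsh replicate 2 or 3, and GstT3 without dsUsh replicate 1 or 3 (adjusted p up to 0.0129, 0.0154 and 0.0106). The count of calls was 5, 4 and 3 without dsEGFP replicate 2, dsUsh replicate 2 and dsUsh replicate 3. Over all genes the calls were then 849 higher and 215 lower, 869 and 239, and 804 and 204, against 1125 and 442 with all libraries. The hemocyte marker list summed to 34893 to 37435 in dsUsh and 18975 to 22911 in dsEGFP, with He and crq of 10 tested called higher and Col4a1, eater and vkg lower. The median log2 change of the 10 was -0.59, opposite to the direction of the sum, which also holds ush. Hml and Pxn had changes of -1.67 and -0.68 and were not called. The lamellocyte list summed to 38906 to 44642 in dsUsh and 9933 to 16694 in dsEGFP, with cher and mthl4 of 3 tested called higher and atilla at 0 in dsEGFP. The muscle list, of which wupA was called higher, summed to 116.3 to 198.9 in dsUsh and 39.8 to 53.3 in dsEGFP. Act88F, Mhc and Act57B had changes of 2.67, 0.002 and -0.64 and were not called. The crystal cell list summed to 233.7 to 329.6 in dsUsh and 13.9 to 55.2 in dsEGFP, with peb of 3 tested called higher at 4.65 ± 0.31 (adjusted p = 6.07e-06, limma). The median change of the 3 was 3.36, that of lz, which was not called. Not all members rose: PPO1 averaged 12.05 in dsUsh and 17.6 in dsEGFP (-0.57, not called). PPO2, under the minimum, averaged 2.38 in dsUsh and 9.16 in dsEGFP. The part of these markers in the GST changes was not tested.

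**Figure D2:**
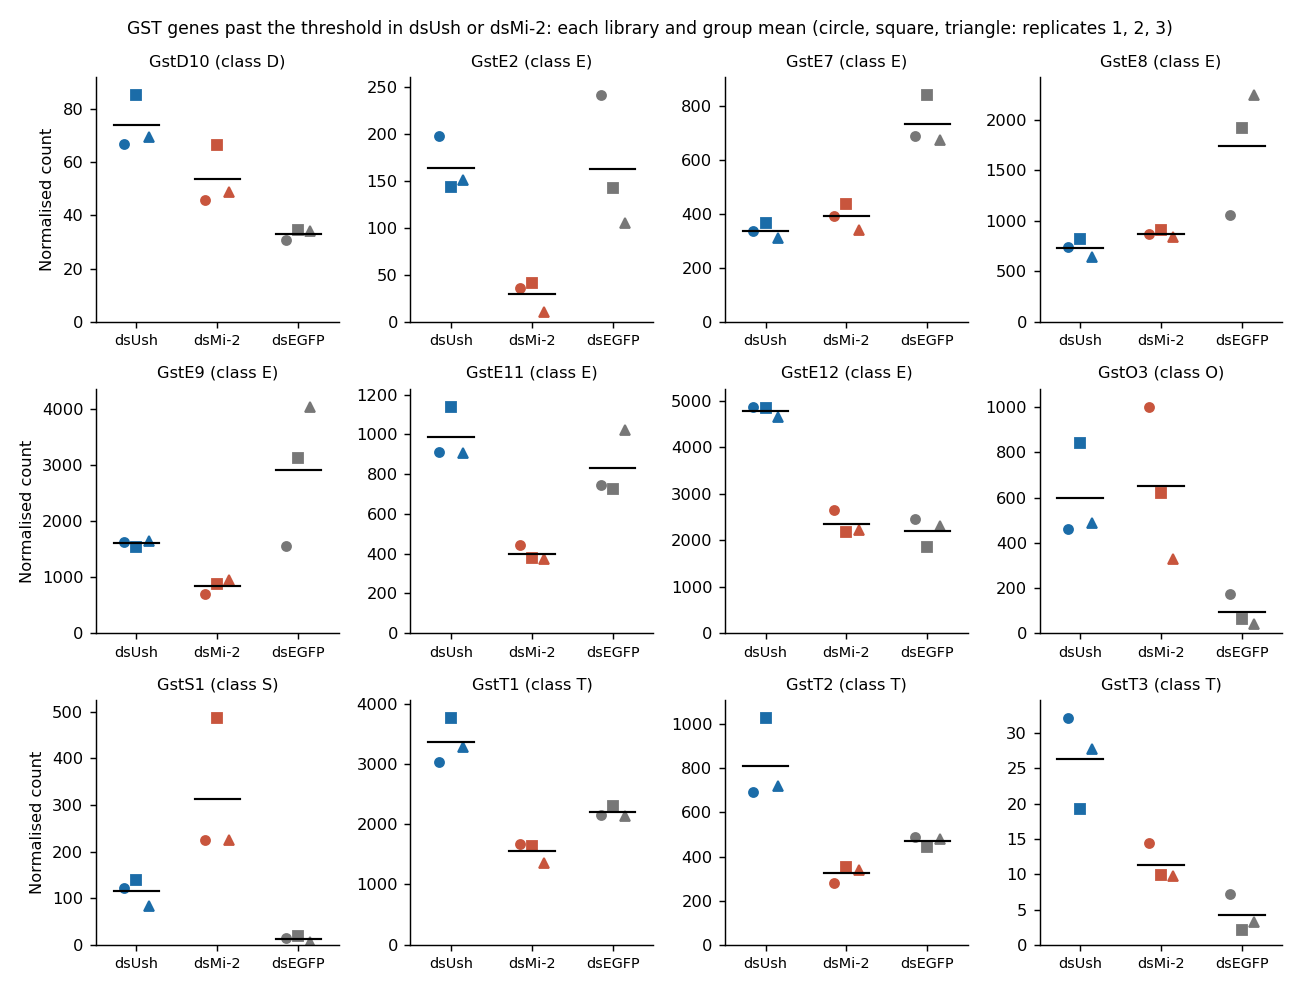
Normalised counts of the 12 GST genes called in dsUsh or dsMi-2, in each dsUsh, dsMi-2 and dsEGFP library on axes that start at 0, with circles, squares and triangles for replicates 1, 2 and 3 and a line at the group mean (n = 3 each). GstS1 and GstO3 lie above dsEGFP in both depletions, GstE12, GstT1 and GstT2 in dsUsh alone, and GstE2, GstE9 and GstE11 lie below dsEGFP in dsMi-2.

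In dMi-2-depleted cells, calls fell in the epsilon, omega and sigma classes. Of 31 tested GST genes 6 were called (19.4%), against 6.29% of all genes tested. GstS1 and GstO3 rose, against 4.34% of all genes called higher, and 4 epsilon genes fell, against 1.95% called lower. The dsMi-2 and dsEGFP groups did not overlap for 16 of 31 (51.6%), against 31.9% of all genes, and an unadjusted p under 0.05 was reached by 16 of 31, against 27.4%. The median log2 fold change was 0.26 over the tested GST genes, against -0.01 over all genes.

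GstS1 had 225, 485.4 and 224.2 normalised counts in the dsMi-2 libraries, against 14.5, 18.8 and 6.4 in the dsEGFP libraries. The log2 fold change of 4.47 ± 0.43 (adjusted p = 0.000218, limma) was the largest of any tested GST gene in any of the 3 depletions. GstO3 had 1001.9, 621.6 and 326.5 in dsMi-2 against 171.9, 63.5 and 40.5 in dsEGFP, a change of 2.93 ± 0.54 (adjusted p = 0.00648, limma), and the dsMi-2 values themselves ranged widely. GstO2, the most abundant omega gene, had 3009.5, 3329 and 2653.3 in dsMi-2 against 2225.8, 2026.3 and 1919.8 in dsEGFP. The groups did not overlap, and the change of 0.54 ± 0.14 was called by limma with the replicate block (adjusted p = 0.00379; 0.0275 without it) and by DESeq2 (adjusted p = 0.00426). GstO2 overlaps the omega gene sepia (se), an eye pigment enzyme, which averaged 10.8 ± 3.65 in dsMi-2 and 6.11 ± 3.91 in dsEGFP.

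Among the epsilon genes, GstE2 had 35.9, 40.8 and 10.7 in the dsMi-2 libraries against 241.6, 142.7 and 105.6 in the dsEGFP libraries, a log2 change of -2.56 ± 0.48 (adjusted p = 0.00684, limma). GstE9 had 706.1, 872.3 and 950.4 in dsMi-2 against 1554.4, 3121.2 and 4031.5 in dsEGFP, a change of -1.69 ± 0.29 (adjusted p = 0.00437, limma). GstE9 overlaps imd, the adaptor gene of the immune deficiency pathway, which averaged 873.02 ± 133.99 in dsMi-2 and 949.6 ± 144.5 in dsEGFP and was not called. GstE11 had 444.2, 379.9 and 375.3 in dsMi-2 against 743.7, 725.1 and 1019.6 in dsEGFP, a change of -1.04 ± 0.16 (adjusted p = 0.00262, limma). GstE7 had 394.7, 437.6 and 342.1 in dsMi-2 against 690.4, 841.8 and 675.1 in dsEGFP, a change of -0.91 ± 0.14 (adjusted p = 0.00287, limma). All 4 lay below every control. GstE8 also lay below, with 867.1, 907.1 and 843.2 in dsMi-2 against 1055, 1916.9 and 2245 in dsEGFP, but was not called (adjusted p = 0.0307, limma; 0.000736 without dsEGFP replicate 1 and 0.00108 by DESeq2). Of 12 tested epsilon genes 9 changes were negative and 3 positive, under the main, upper-quartile and quantile scalings alike, and the summed epsilon count was 7885 to 11061 in dsMi-2 and 14131 to 15919 in dsEGFP. GstE5 alone of the class stood above the control range, with 17.5, 24.9 and 19.5 in dsMi-2 against 14.5, 5.2 and 8.5 in dsEGFP (adjusted p = 0.11, limma), and GstE12 averaged 2348 ± 266.5 in dsMi-2 and 2203 ± 308.99 in dsEGFP.

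No delta, theta or zeta gene was called in dsMi-2 by limma without the replicate block. GstD1 had 21235, 27286.6 and 16222.8 normalised counts in the dsMi-2 libraries against 15430.5, 15807.3 and 9238.3 in the dsEGFP libraries, just without overlap. Its change of 0.69 ± 0.27 was called with the block only (adjusted p = 0.0038; 0.128 without it, limma). Of 10 tested delta genes 9 had a positive change, 8 under quantile normalisation, and GstD7 a negative one of -0.89 ± 0.30. GstT1 had 1665.2, 1643.1 and 1348.1 in dsMi-2 against 2145.3, 2293 and 2142.7 in dsEGFP, a change of -0.50 ± 0.11 that was called by limma with the block (adjusted p = 0.0051; 0.0174 without it) and by DESeq2 (adjusted p = 0.00179). GstT2 also lay below the controls, with 281.3, 354.1 and 338.2 in dsMi-2 against 488.6, 441.7 and 481 in dsEGFP (adjusted p = 0.0633, limma), GstT3 above them, with 14.5, 9.9 and 9.7 against 7.2, 2.1 and 3.2 (adjusted p = 0.0671, limma), and GstT4 overlapped them (adjusted p = 0.779, limma). GstZ1 had 318.1, 288.4 and 243.7 in dsMi-2 against 340.2, 336.5 and 272 in dsEGFP (adjusted p = 0.597, limma).

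Of the dsMi-2 calls only GstS1 held with any of the 6 libraries left out and in a fit of these 2 groups alone, in which it was the only GST gene called. GstE11 was lost without dsMi-2 replicate 2 or 3, GstE7 without dsEGFP replicate 2 or dsMi-2 replicate 1 or 3, GstE2 without any dsEGFP library or dsMi-2 replicate 1, GstO3 without dsEGFP replicate 2 or 3 or dsMi-2 replicate 1 or 2, and GstE9 without any library but dsEGFP replicate 1, with adjusted p up to 0.014, 0.0142, 0.0224, 0.027 and 0.02. The count of calls was 2 or 3 without dsEGFP replicate 2 or 3 or any 1 dsMi-2 library. Over all genes 218 to 289 were then called higher and 70 to 140 lower, against 396 and 178 with all libraries. With the replicate block 9 GST genes were called, of which 4 rose, against 697 higher and 490 lower of all 9132 genes tested. The hemocyte list summed to 28408 to 30740 in dsMi-2 and 18975 to 22911 in dsEGFP, with Col4a1 and vkg of 10 tested called higher and eater lower, and the muscle list to 26.9 to 64.01 in dsMi-2 and 39.8 to 53.3 in dsEGFP; their part in the GST changes was not tested.

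**Figure D3:**
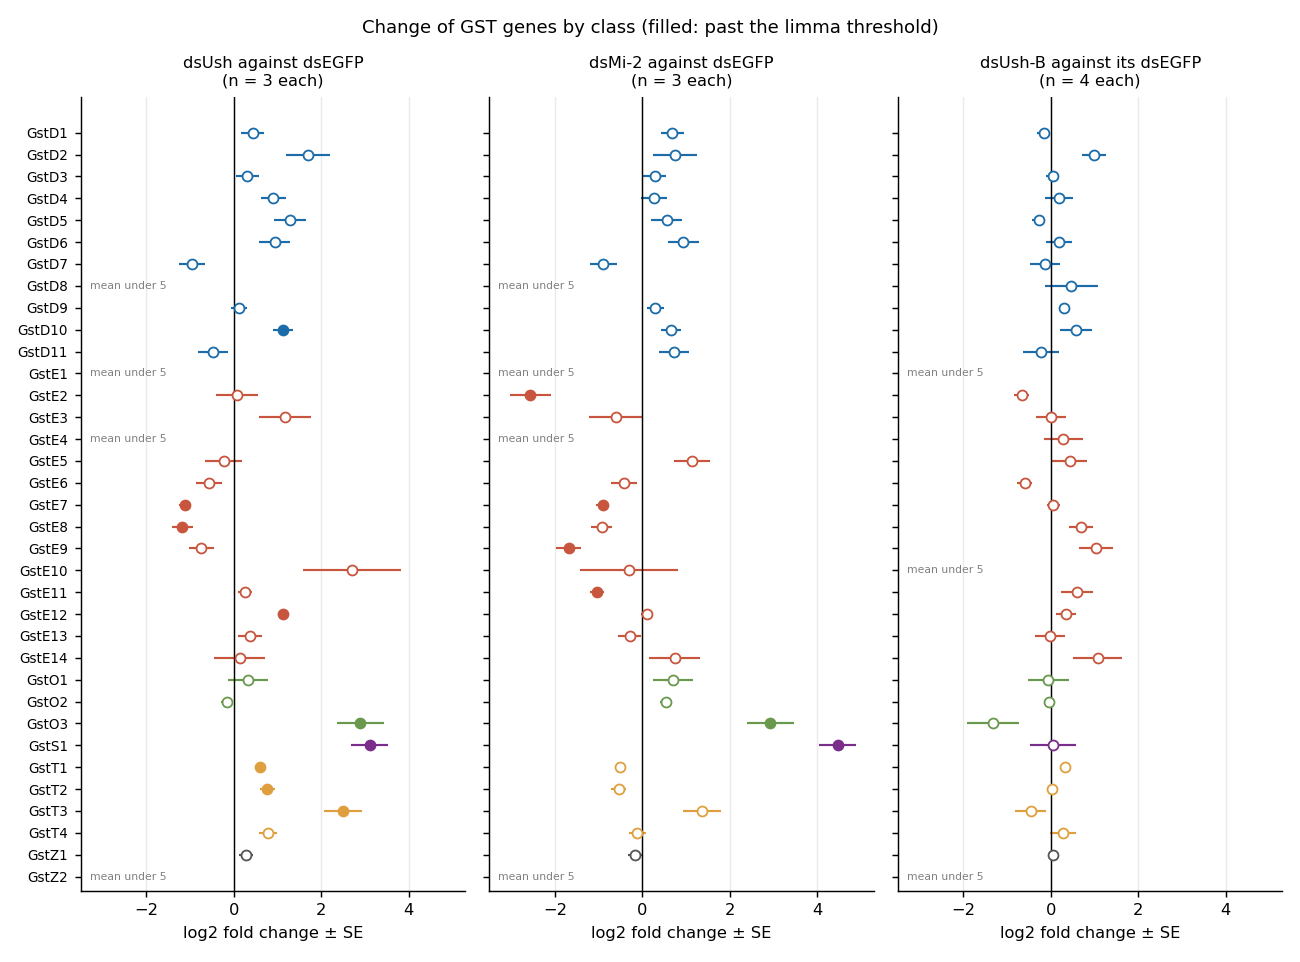
Log2 fold change (± SE) of each GST gene in dsUsh and dsMi-2 against dsEGFP (n = 3 each) and in dsUsh-B against its own dsEGFP (n = 4 each), with genes in rows by class and filled points where limma called the gene (adjusted p under 0.01, or 0.05 for dsUsh-B). Genes marked as mean under 5 were not tested. GstS1 and GstO3 lie far to the right in the first 2 panels, 9 of 12 tested epsilon genes lie left of 0 in the second, and no point is filled in the third.

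Because dsUsh and dsMi-2 were compared with the same dsEGFP libraries, the 2 depletions were also contrasted directly. In that contrast 7 of 31 GST genes were called (22.6%), against 22.8% of all genes tested, and the groups did not overlap for 20 of 31 (64.5%), against 52.1%. An unadjusted p under 0.05 was reached by 16 of 31, against 46% of all genes. Of the calls, 6 were higher in dsUsh, against 14.5% of all genes, and 1 lower, against 8.31%, and over all genes the split of 1323 higher and 759 lower turned to 1047 and 1191 under upper-quartile scaling and 1099 and 1219 under quantile normalisation. The share called was thus close to that of all genes. With the replicate block 12 GST genes were called, 9 of them higher in dsUsh, against 1857 higher and 1374 lower of all 9132 genes.

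Theta genes differed most evenly between the depletions, all 4 lying above the dsMi-2 range in dsUsh. Over all genes these groups did not overlap, in either direction, for 52.1%. GstT1 had 3034.3, 3753.5 and 3286.8 normalised counts in dsUsh against 1665.2, 1643.1 and 1348.1 in the dsMi-2 libraries, a log2 difference of 1.11 ± 0.11 (adjusted p = 7.12e-05, limma). The difference was 1.30 ± 0.17 for GstT2 (adjusted p = 0.000301, limma) and 0.89 ± 0.20 for GstT4 (adjusted p = 0.00665, limma), the last of which lost its call with any 1 of the 6 libraries left out (adjusted p up to 0.0278) and under upper-quartile scaling and quantile normalisation. CG12926, which overlaps GstT2, ran the other way, at 676.5 ± 360.2 in dsUsh and 1382 ± 247.4 in dsMi-2.

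Among the epsilon genes, GstE2 had 197.9, 143.2 and 151.5 in dsUsh against 35.9, 40.8 and 10.7 in dsMi-2, a log2 difference of 2.64 ± 0.48 (adjusted p = 0.00214, limma; 0.0101 without dsUsh replicate 1). GstE11 had 911.6, 1138.7 and 904.9 in dsUsh against 444.2, 379.9 and 375.3 in dsMi-2, a difference of 1.29 ± 0.16 (adjusted p = 0.000237, limma). GstE12 had 4867.9, 4838.7 and 4643.2 in dsUsh against 2654.5, 2172.3 and 2216.6 in dsMi-2, a difference of 1.03 ± 0.12 (adjusted p = 0.000174, limma). None of these groups overlapped. GstE3, GstE9 and GstE13 were also called higher in dsUsh with the replicate block (adjusted p = 0.00186, 0.00846 and 0.00166, limma), and GstE9 by DESeq2 (0.00593) and in a fit of these 2 groups alone (0.00105).

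GstO2 was called lower in dsUsh than in dsMi-2, with 1801.5, 2178.5 and 1571.9 in dsUsh against 3009.5, 3329 and 2653.3 in dsMi-2, a difference of -0.70 ± 0.14 (adjusted p = 0.00303, limma). It lost its call without dsUsh replicate 1 or 3 or dsMi-2 replicate 1 or 2 (adjusted p up to 0.0145), and the count of calls was 4 without dsUsh replicate 1. Over all genes 1050 were then called higher and 567 lower. GstS1, at 83.2 to 138.6 in dsUsh and 224.2 to 485.4 in dsMi-2, and GstD11, at 25.6 to 50 in dsUsh and 63.4 to 86.5 in dsMi-2, were called lower with the replicate block (adjusted p = 0.00224 and 0.00279, limma) and by DESeq2 (0.00126 and 0.00974), and GstD11 also without dsUsh replicate 2 (0.00984). GstO3 did not differ beyond its spread between the depletions, at -0.03 ± 0.54, an interval of -1.09 to 1.02.

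The delta genes form 1 cluster of 11 neighbouring genes on arm 3R and 10 epsilon genes form a cluster on arm 2R, by the gene order of the RefSeq annotation (assembly Release 6). The signs of neighbouring changes differed, mostly among genes that were not called. In the delta cluster GstD7 had changes of -0.95 in dsUsh and -0.89 in dsMi-2 (adjusted p = 0.0405 and 0.0844, limma). GstD6 on one side had 0.93 in dsUsh and 0.94 in dsMi-2 (adjusted p = 0.0755 and 0.119, limma). In the epsilon cluster the last 4 genes in order, GstE6, GstE7, GstE8 and GstE9, had negative changes in both depletions (-0.57, -1.12, -1.18 and -0.75 in dsUsh, and -0.42, -0.91, -0.92 and -1.69 in dsMi-2), both measured against the same controls. Earlier in the cluster, GstE2 and GstE3 had 0.08 and 1.17 in dsUsh and -2.56 and -0.61 in dsMi-2. Every call in the epsilon cluster against dsEGFP was lower: GstE7 and GstE8 in dsUsh, and GstE2, GstE7 and GstE9 in dsMi-2. Opposite movement of called neighbours was thus not seen there. Cluster genes are close copies of each other, and how the counting treated reads that fit more than 1 copy is not given in the sources used here, so values of neighbouring copies are uncertain to that degree.

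**Figure D4:**
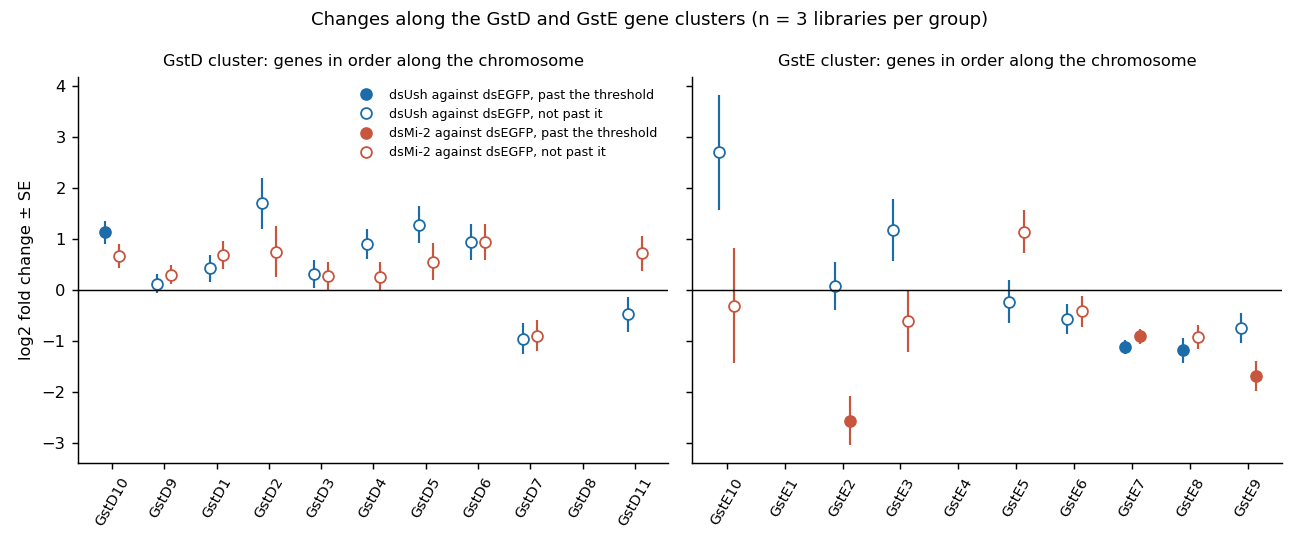
Log2 fold change (± SE, n = 3 libraries per group) along the GstD cluster (left) and the GstE cluster (right), with genes in chromosomal order, dsUsh in blue and dsMi-2 in red, and filled points for calls by limma at an adjusted p under 0.01. GstD8, GstE1 and GstE4 were not tested; GstD7 lies below 0 in both depletions and GstD11 in dsUsh, and GstE6 to GstE9 lie below 0 in both depletions.

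Depletion of Ush-B gave no call. None of 32 tested GST genes passed an adjusted p under 0.05 with limma, against 0.0104% of all 9648 genes tested, and 7 of 32 had an unadjusted p under 0.05 against 7.09% of all genes. On recovered reads edgeR called 0, with 5 at an unadjusted p under 0.05, and DESeq2 called 1, GstE2, with 8. Over all genes the tools also differed: DESeq2 called 49 higher and 42 lower of 8516, limma 1 of 9648 and edgeR 0. The dsUsh-B and dsEGFP groups did not overlap for 2 of 32 (6.25%), against 4.02% of all genes. The median log2 fold change was 0.06 over the GST genes and -0.00047 over all genes.

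GstE2 had 235.5, 294.1, 293.8 and 247.3 normalised counts in the dsUsh-B libraries, against 530.3, 351.3, 463.1 and 371.1 in their dsEGFP libraries. All 4 lay below all 4 controls, at a log2 change of -0.67 ± 0.17 (adjusted p = 0.454, limma; 0.021, DESeq2). GstD2 had 159.5, 162.8, 117.7 and 137.3 in dsUsh-B, against 94.7, 48.8, 54.2 and 103.6 in dsEGFP. All 4 lay above the controls, at 0.99 ± 0.28 (adjusted p = 0.528, limma; 0.0864, DESeq2).

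The other 5 genes at an unadjusted p under 0.05 overlapped their controls. GstE6 averaged 6537 ± 1222 in dsUsh-B and 9915 ± 1851 in dsEGFP (SD, n = 4 each), GstE8 3441 ± 359.5 and 2271 ± 959.4, GstE9 6211 ± 847.02 and 3479 ± 2111, GstT1 4673 ± 468.5 and 3756 ± 456.4, and GstD9 3994 ± 287.4 and 3264 ± 587.7, in the same order of groups. In GstE8 and GstE9 the control spread came from replicate 4, at 3533.3 and 6376.7, and replicate 3, at 1281.1 and 1403.4. GstO3, called higher in the other depletions, had 99.3, 42.2, 35.7 and 64.9 in dsUsh-B against 273.8, 141.3, 254 and 40.5 in dsEGFP, and GstS1 27.5, 41.2, 9.5 and 24.4 against 36.6, 22.9, 29.9 and 9. Both overlapped their controls (adjusted p = 0.704 for GstO3 and 0.99 for GstS1, limma). GstD8 and GstE4, tested in this experiment only, averaged 11.7 ± 7.41 and 8.7 ± 1.79 in dsUsh-B and 8.73 ± 6.63 and 8.08 ± 6.25 in dsEGFP.

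The sign of the change was the same in replicates 1 and 2 as in replicates 3 and 4 for 25 of 32 genes and opposite for 7. Replicate numbers did not pair all libraries of this experiment. Deviations from group means correlated at 0.557 and 0.66 for replicates 1 and 2, but at -0.0486 and 0.138 for replicates 3 and 4. Crosswise, dsEGFP replicate 4 with dsUsh-B replicate 3 gave 0.762, and dsEGFP replicate 3 with dsUsh-B replicate 4 gave 0.517. A block by that crosswise pairing was not tested. Neither the block by replicate number nor a term for replicates 1 and 2 against 3 and 4 called a GST gene.

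**Figure D5:**
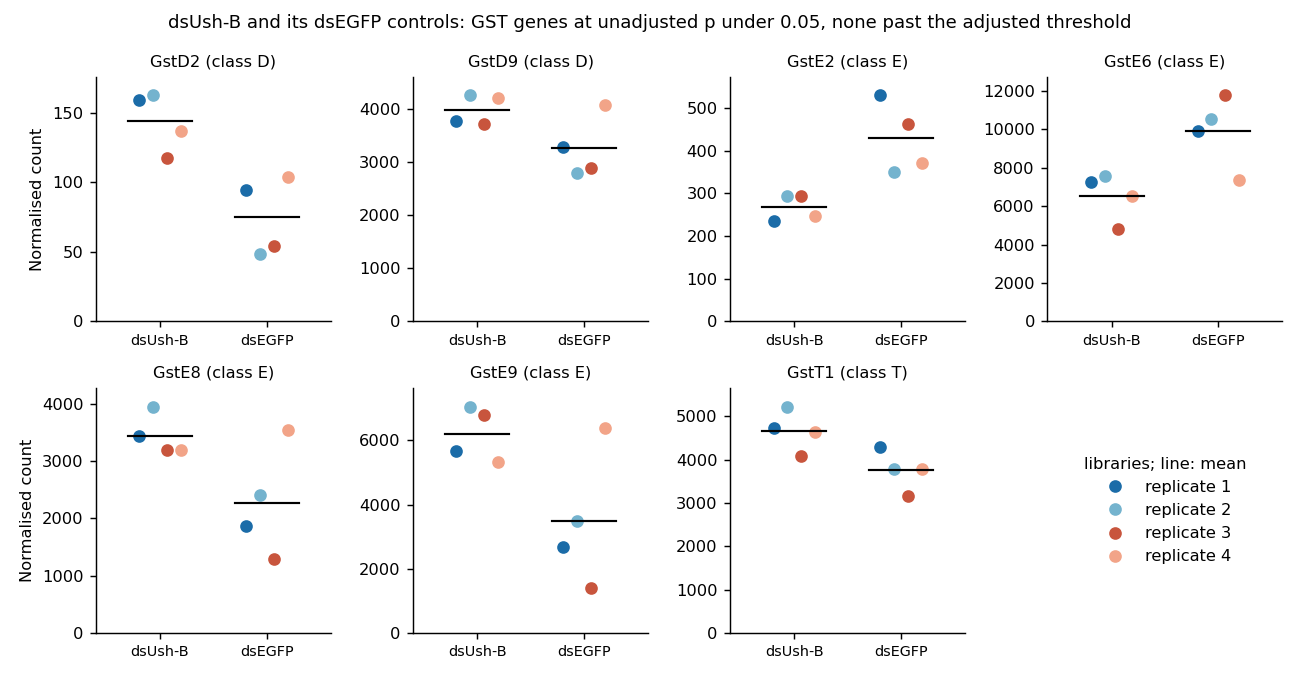
Normalised counts of the 7 GST genes at an unadjusted p under 0.05 in each dsUsh-B library and each dsEGFP library of that experiment, coloured by replicate number, with a line at the group mean (n = 4 each) and axes that start at 0. GstE2 and GstD2 are the genes whose groups do not overlap, and in GstE8 and GstE9 dsEGFP replicate 4 lies far above dsEGFP replicate 3.

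Genes that act with the GSTs were read from lists of glutathione metabolism, its regulators and export. In dsUsh, 4 of 11 tested regulators of the oxidative and electrophile response were called, all higher, against 12.3% of all genes called higher. Keap1, the inhibitor of CncC, had 757.1, 954.6 and 792.9 normalised counts in dsUsh against 355.6, 352.1 and 256 in dsEGFP, a log2 change of 1.38 ± 0.20 (adjusted p = 0.000758, limma). The changes were 0.56 ± 0.13 for cnc (adjusted p = 0.00817), and 1.00 ± 0.13 for Jra and 1.21 ± 0.25 for kay, the fly Jun and Fos (adjusted p = 0.00041 and 0.00558, limma). With the replicate block foxo was also called in dsUsh, at 0.47 (adjusted p = 0.00281, limma). In dsMi-2 none of the 11 was called by limma; the changes were 0.45 ± 0.20 for Keap1 and -0.21 ± 0.13 for cnc. The list medians were 0.11 in dsUsh and 0.03 in dsMi-2.

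Of 6 tested genes of glutathione synthesis and breakdown, Gclc, the catalytic subunit of the rate-limiting ligase, rose in dsUsh with 4546.7, 4442.1 and 4063.7 against 2878.2, 2368 and 1978.4 in dsEGFP (0.87 ± 0.15; adjusted p = 0.00219, limma). Ggt-1, a gamma-glutamyl transferase, rose by 3.42 ± 0.41 on the log2 scale (adjusted p = 0.000236, limma) and CG4829 fell by 2.86 ± 0.39 (adjusted p = 0.000551, limma). None of the 6 was called in dsMi-2 without the replicate block, but 3 were with it, Gclm at 0.54, CG17337 at -0.40 and CG4829 at -1.62 (adjusted p = 0.00151, 0.00936 and 0.00286, limma). In dsUsh the block added CG17337 at 0.41 and Gclm at -0.39 (adjusted p = 0.0044 and 0.00331, limma). Of 7 tested thiol-transfer genes, Grx1, a glutaredoxin, moved in opposite directions, with 898.6, 1153.4 and 1094.9 in dsUsh and 104.7, 77.6 and 73.1 in dsMi-2, against 268.7, 202.1 and 310.4 in dsEGFP. The direct difference was 3.62 ± 0.21 on the log2 scale (adjusted p = 2.92e-06, limma). The thioredoxin gene dhd had 34.9, 27.8 and 26.3 in dsMi-2 against 0, 4.2 and 0 in dsEGFP (adjusted p = 0.00279, limma). In dsUsh dhd was at 0. It reached the minimum mean of 5 through the dsMi-2 libraries alone, so filter and call rest on the same values.

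Of 10 tested transporters on the list for export of conjugates, CG4562 had 15497.9, 41978.1 and 17469.3 in dsUsh against 36.2, 28.1 and 32 in dsEGFP, a log2 change of 9.41 ± 0.35 (adjusted p = 4.1e-07, limma). CG31792 had 280.4, 1117.1 and 387.4 in dsUsh against 7.2, 8.3 and 6.4 in dsEGFP, a change of 5.90 ± 0.48 (adjusted p = 2.08e-05, limma). Both stood within the control range or close to it in dsMi-2, at 24.9 to 40.9 for CG4562 and 5 to 9.7 for CG31792, where CG10505 was called, 1.63 ± 0.32 higher (adjusted p = 0.00948, limma). With the replicate block Mrp4 at -0.69 and CG7627 at -0.50 were also called in dsMi-2 (adjusted p = 0.00413 and 0.00934, limma), and CG11897 at 1.26 and CG31793 at -0.55 in dsUsh (adjusted p = 0.00984 and 0.00143, limma). Of 10 tested genes with a GST fold or activity whose symbols the rule does not take, gfzf, a zinc-finger protein with a GST domain, was called in dsUsh, with 1401.2, 1336.4 and 1212.3 against 1855.7, 1933.6 and 1910.2 in dsEGFP (-0.53 ± 0.09; adjusted p = 0.0014, limma). The block added fax, at -0.99 in dsUsh and 0.77 in dsMi-2 (adjusted p = 0.00105 and 0.00647, limma). No gene of these lists was called by limma in dsUsh-B.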

How the data were processed

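RNA-seq of 17 S2 cell libraries was analysed; the 4 ChIP-seq samples of the series were not analysed here. The authors used stranded mRNA libraries and 50-base single reads, STAR, featureCounts and DESeq2, and deposited 2 tables of size-factor-normalised counts per gene (unit: signal), normalised separately. The submitters' processing notes name featureCounts 1.6.2, DESeq2 2.11.40.2 and the builds dm3 and dm6 without their roles; the annotation and strand setting of the counting are not given in the sources used here. Another 3 tables hold the authors' own comparisons and were not used. The columns outside the sample map numbered 0.

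Dividing each deposited normalised count by the value of 1 read gave whole reads, within 0.05 reads, for every value used; edgeR 4.0.16 and DESeq2 1.42.0 were run on these as alternatives. The main test was limma 3.58.1 (R 4.3.3) on log2(normalised count + 1), with moderation along the mean trend, two-sided, Benjamini-Hochberg adjusted over all genes with a mean of at least 5. It was tested on simulated data. Fold changes on this scale understate changes of low genes. Members were matched by symbol, all 35 to RefSeq genes of Release 6, whose gene spans, in place of exon lengths, gave levels per kilobase. Genes named are all members tested, the dsRNA targets and list genes that were called. The members and lists were chosen with earlier results of these data known.

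Methods name 3 independent transfections; nothing says so for the 4 libraries of each Ush-B group, where p-values may measure technical spread. In the first experiment replicate numbers paired the libraries: deviations from group means correlated at 0.239 to 0.569 for all 9 same-number pairs and at -0.413 to 0.0049 for the others. The block was run as an alternative beside pseudocounts, filters, scalings, thresholds and left-out libraries.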

Additional observations from a re-analysis of the deposited data

Results flagged for a closer look

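In the second experiment 64 groups of 4 libraries were examined for a value apart from the rest, of which chance gives about 1 in 20, and 2 were found. GstD6 had 21.9 normalised counts in dsEGFP replicate 2, below 41.1 to 42.8 in the other dsEGFP libraries. GstE11 had 2725.4 in dsEGFP replicate 4, above 1060 to 1142 in the others.

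The effects of dsUsh and dsMi-2, tested as 1 contrast with limma, differed for 7 GST genes. The log2 difference of dsUsh minus dsMi-2 was 2.64 for GstE2 (adjusted p = 0.00214), 1.30 for GstT2 (0.000301), 1.29 for GstE11 (0.000237), 1.11 for GstT1 (7.12e-05), 1.03 for GstE12 (0.000174), 0.89 for GstT4 (0.00665) and -0.70 for GstO2 (0.00303), and the groups did not overlap in any of these 7. The share of GST genes called in this contrast was close to that of all genes tested.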

How the results depend on the processing

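At a threshold of 0.05, 14 GST genes passed in dsUsh (11 higher) and 12 in dsUsh against dsMi-2 (4 lower). Of all 9132 genes 1654 then passed higher and 1025 lower in dsUsh, and 1903 and 1442 in dsUsh against dsMi-2. DESeq2 called 11 in dsUsh against dsMi-2 (3 lower), against 1613 higher and 1114 lower of all 9124 genes. In dsUsh-B it called 1 (1 lower), against 49 higher and 42 lower of 8516. In a fit of the 2 groups alone, 1 gene was called lower in dsUsh, and in dsMi-2 1 in all (1 higher, 0 lower). Over all genes 894 were then called higher and 216 lower in dsUsh, and 242 and 65 in dsMi-2. Moderation without a trend left 1 lower call in dsUsh and 3 calls in dsMi-2 (1 higher, 2 lower), against 963 higher and 331 lower, and 333 and 105, of all genes. Of the GST genes edgeR called 1 higher in dsMi-2, against 368 higher and 160 lower of all genes. With the replicate block, 4 rose in dsMi-2, and 12 were called in dsUsh against dsMi-2 (3 lower), beside the all-gene counts given above. The block changed no call of a GST gene beyond those named in the report. In dsUsh-B the numbers do not pair all libraries (same-number correlations -0.0486 to 0.66, higher crosswise for replicates 3 and 4), and the block by replicate number called 0. The causes of these differences were not tested, apart from the threshold, which admits more genes.

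With 1 library left out, calls ranged from 3 to 8 in dsUsh (higher 2 to 5, lower 1 to 3), 2 to 6 in dsMi-2 (higher 1 to 2, lower 1 to 4), 4 to 7 in dsUsh against dsMi-2 (higher 4 to 5, lower 0 to 2), and were 0 in dsUsh-B. Over all genes, calls higher then ranged from 804 to 1010, 218 to 395, 951 to 1064 and 0 to 4, in the same order. Calls lower ranged from 204 to 363, 70 to 140, 436 to 567 and 0 to 1. With all libraries of the first experiment they were 1125 higher and 442 lower, 396 and 178, and 1323 and 759. Of 2223 refits of single genes, 75 lost and 30 gained a call, and 61 changed sign, none of a called value.

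Under quantile normalisation the log2 fold change turned to -0.51 for GstE14, -0.40 for GstE2 and -0.094 for GstO1 in dsUsh, -0.23 for GstD4 in dsMi-2, -0.18 for GstD3 in dsUsh against dsMi-2 and -0.0056 for GstS1 in dsUsh-B. Under upper-quartile scaling it turned to -0.033 for GstE2 in dsUsh, -0.12 for GstD3 in dsUsh against dsMi-2 and -0.0031 for GstE3 in dsUsh-B. In dsUsh-B, edgeR and DESeq2 turned GstE13 to 0.032 and 0.038, GstE3 to -0.081 and -0.077 and GstO1 to 0.067 and 0.073.

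With 1 library left out, the sign changed for the following, given as lowest and highest value. In dsUsh these were GstD9 (-0.060 to 0.24), GstE14 (-0.19 to 0.41), GstE2 (-0.19 to 0.40), GstE5 (-0.55 to 0.10) and GstO1 (-0.19 to 0.67). In dsMi-2 these were GstE12 (-0.022 to 0.18), GstE3 (-1.21 to 0.0028) and GstT4 (-0.26 to 0.14). In dsUsh against dsMi-2 these were GstD3 (-0.19 to 0.26), GstD6 (-0.35 to 0.22), GstD7 (-0.22 to 0.18), GstE6 (-0.46 to 0.092) and GstO3 (-0.46 to 0.35). In dsUsh-B these were GstD11 (-0.50 to 0.041), GstD3 (-0.049 to 0.16), GstD6 (-0.032 to 0.33), GstD7 (-0.42 to 0.13), GstE13 (-0.34 to 0.20), GstE3 (-0.30 to 0.23), GstE7 (-0.052 to 0.16), GstO1 (-0.32 to 0.42), GstO2 (-0.087 to 0.012), GstS1 (-0.35 to 0.45) and GstT2 (-0.036 to 0.13).

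The share of the level held by GstD1 is the same by construction with the authors' normalised counts, since scaling a library does not move shares within it. Counts under 10 in most libraries limit GstE1, GstE4, GstE10, GstE14, GstD8 and GstZ2.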
